A study of Mus musculus with 22 samples.

Results

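Leukocytes reach and stay in a tissue by means of adhesion molecules, and 9 such genes were followed here in regulatory T cells (Tregs) of mouse visceral fat: the integrin chains Itgal, Itgb2, Itga4, Itgb1, Itgb7 and Itgae, the hyaluronan receptor Cd44, the selectin ligand Selplg and the integrin ligand Icam1. They were taken by name from a table that lists 55011 genes, and all 9 passed the filter on low counts in every fit. The study compared Tregs labelled WT or KO for Bmal1, the clock transcription factor encoded by Arntl. Each of 22 libraries came from 1000 Foxp3YFP+ cells, sorted in 2 rounds from the visceral adipose tissue of male mice of the C57BL/6 Foxp3.Cre-YFP strain at ZT0, when the lights go on. Every group, WT included, thus carries Cre and YFP under Foxp3.

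There were 8 groups. Mice on a lean diet were 18 weeks old (3 WT and 3 KO libraries). Mice on 4 weeks of high fat diet were also 18 weeks old (3 WT and 3 KO), and mice on 16 weeks of high fat diet were 30 weeks old (3 WT and 3 KO). Both high fat groups had first eaten the lean diet for 14 weeks. Transferred Tregs were sorted 9 weeks after adoptive transfer from mice 20 weeks old (2 WT and 2 KO), and the host is not described. The sample names of these libraries carry no diet, unlike those of the diet groups. Age cannot be told apart from 16 weeks of high fat diet. The labels do not say whether libraries of 1 group came from separate animals or pools, so the p-values describe spread among libraries, which may be technical.

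Depth was 1955940 to 3467019 counts per diet library (18 libraries) and 4814337 to 5990319 counts per transfer library (4 libraries). Foxp3, the defining Treg gene, was present in every library at 405 to 688 CPM (counts divided by library depth, with the TMM correction for composition). Arntl read 55.2 to 108 CPM in the 9 WT diet libraries and 74.0 to 102 CPM in the 9 KO diet libraries, and its KO minus WT log2 difference over the diets was 0.22 ± 0.10 (SE, edgeR adjusted p = 0.652). The sources used here do not name the deleted stretch of the gene, so this level checks nothing, and KO below means a library labelled KO. One library stood apart: KO 1 at 16 weeks of high fat diet held 70.9 CPM of 6 summed endothelial markers, 128 CPM of 6 stromal markers and 53.3 CPM of 5 adipocyte markers, against at most 20.5, 11.3 and 11.5 CPM in the other 21. The other KO libraries at 16 weeks had endothelial sums of 20.5 and 13.7 CPM, so all 3 lay above the other 19 libraries, which reached at most 7.54 CPM. Results at 16 weeks are given with and without KO 1 where leaving it out changed a call.

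Integrins are pairs of an alpha and a beta chain that bind once signalling inside the cell has switched them on. Itgal pairs with Itgb2 to form the receptor for Icam1, which lets lymphocytes arrest on endothelium and hold antigen-presenting cells. Itga4 pairs with Itgb1 to bind Vcam1 and fibronectin, or with Itgb7 to bind the gut addressin Madcam1. Itgae, which encodes CD103, pairs with Itgb7 to form the receptor for E-cadherin. Cd44 binds hyaluronan and marks antigen-experienced T cells, and Selplg encodes PSGL-1, on which leukocytes roll along selectins. Tregs of visceral fat are known for an effector profile with Cd44, Pparg and the IL-33 receptor Il1rl1.

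The start sites of 4 members whose levels differed between settings follow, as 250 bases before and 50 after the start from RefSeq (GRCm38.p6, gene strand). RefSeq windows were matched for 5 of the 9 members, these 4 and Icam1. Capitals mark the GC box GGGCGG, a motif picked after the sequences had been seen.
Cd44 (chr2:102901616-102901915, minus strand): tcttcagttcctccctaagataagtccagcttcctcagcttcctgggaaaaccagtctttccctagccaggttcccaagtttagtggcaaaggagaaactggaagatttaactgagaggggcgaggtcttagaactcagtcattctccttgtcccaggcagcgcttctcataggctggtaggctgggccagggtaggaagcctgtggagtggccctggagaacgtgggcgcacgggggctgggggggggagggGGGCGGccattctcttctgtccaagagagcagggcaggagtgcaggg
Itga4 (chr2:79255176-79255475, plus strand): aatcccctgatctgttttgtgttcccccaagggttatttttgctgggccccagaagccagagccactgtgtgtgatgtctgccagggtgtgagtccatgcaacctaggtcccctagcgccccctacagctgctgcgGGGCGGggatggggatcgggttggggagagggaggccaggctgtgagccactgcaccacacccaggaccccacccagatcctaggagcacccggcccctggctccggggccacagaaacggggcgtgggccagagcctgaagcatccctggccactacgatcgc
Itgb1 (chr8:128685404-128685703, plus strand): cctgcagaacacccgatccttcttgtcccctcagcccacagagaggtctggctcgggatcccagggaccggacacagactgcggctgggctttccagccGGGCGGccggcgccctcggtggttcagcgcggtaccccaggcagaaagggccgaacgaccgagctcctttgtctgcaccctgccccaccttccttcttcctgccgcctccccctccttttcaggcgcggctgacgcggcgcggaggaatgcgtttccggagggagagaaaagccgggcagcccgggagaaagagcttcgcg
Itgb7 (chr15:102231886-102232185, minus strand): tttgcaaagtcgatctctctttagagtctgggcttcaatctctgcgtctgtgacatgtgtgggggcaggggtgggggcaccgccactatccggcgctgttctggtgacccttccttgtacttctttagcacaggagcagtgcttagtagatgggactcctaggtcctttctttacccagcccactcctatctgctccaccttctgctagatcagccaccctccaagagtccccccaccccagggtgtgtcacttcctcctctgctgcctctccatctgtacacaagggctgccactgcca

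Searched on both strands, CACGTG, the E-box that BMAL1 binds with CLOCK, had no match in the 5 member windows, and 7.15% of the 32851 windows of the same length hold it. AGGTCA, the site read by REV-ERB and ROR, also had no match in the 5, against 16.3% of all windows. The GC box was present in 4 of the 5 windows (all but Itgb7), against 35.7% of all windows. No match says only that these letters are not in these 300 bases.

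In mm10 the genes lie on 8 chromosomes: Itgae on chromosome 11 (73090583 to 73147446), Itgb1 on 8 (128685654 to 128733200), Itgal on 7 (127296260 to 127335138), Itgb2 on 10 (77530252 to 77565708), Itgb7 on 15 (102215995 to 102231944), Selplg on 5 (113818536 to 113832644) and Icam1 on 9 (21015985 to 21028817). Itga4 (79255426 to 79333123) and Cd44 (102811141 to 102901665) are both on chromosome 2. An exon of Itga4 overlaps Cerkl and an exon of Icam1 overlaps Gm47079, each on the opposite strand. The library kit does not mark the strand, so reads in those overlaps could belong to either gene.

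Per length, Itgb7 was the most abundant and Itgae the least abundant of the 9 in each of the 8 groups. Mean Itgb7 was between 571 CPM per kilobase of exon (16 weeks, KO) and 953 CPM per kilobase (transferred, WT), whereas mean Itgae was between 1.27 (transferred, WT) and 17.3 CPM per kilobase (16 weeks, KO). Itga4 ranked eighth throughout, at 16.0 to 34.4 CPM per kilobase, although its 2 possible partners Itgb1 and Itgb7 ranked above it. Cd44 and Itgb1 changed place most. Cd44 ranked sixth in lean WT (78.4 ± 30.1 CPM per kilobase, SD, n = 3), 4 in lean KO (121 ± 6.30, n = 3) and 3 in transferred KO (226 ± 5.15, n = 2). Itgb1 ranked 4 in lean WT (137 ± 24.9, n = 3) and 7 in both transferred groups.

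**Figure D1:**
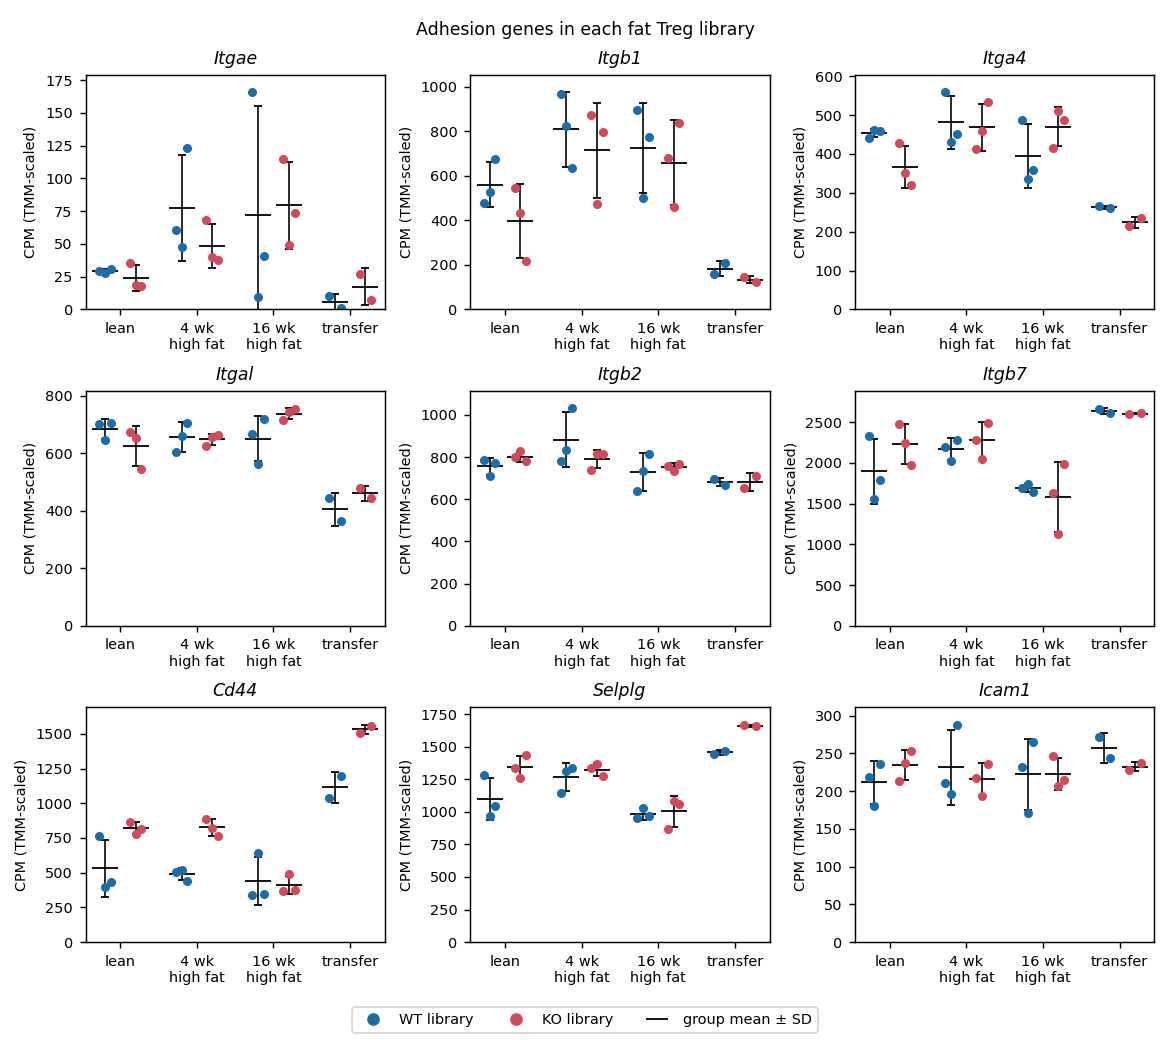
TMM-scaled CPM of the 9 genes in each library (blue WT, red KO), by diet or transfer, with the group mean and SD as black lines and y axes from 0; the lower SD bar of Itgae is cut at 0 where it would pass it. Cd44 is at 1037 CPM or more in the 4 transferred libraries and at 887 CPM or less in the 18 diet libraries, and Itgb1 shows the opposite order.

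None of the 9 genes differed past the threshold between KO and WT on any diet. Cd44, the hyaluronan receptor, had the largest KO minus WT difference of the 9 relative to its error on the lean diet, at 4 weeks of high fat diet and after transfer. On the lean diet Cd44 was at 766, 398 and 429 CPM in the WT libraries and at 864, 779 and 814 CPM in the KO libraries. The groups did not overlap, but WT 1 lay close below the lowest KO library and apart from the other WT libraries. After 4 weeks of high fat diet Cd44 was at 507, 519.6 and 444 CPM in WT and at 887, 823 and 768 CPM in KO, with no overlap. After 16 weeks it was at 340.1, 639 and 345 CPM in WT and at 368, 488 and 377 CPM in KO, and here the groups overlapped.

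The log2 difference of Cd44, KO minus WT, was 0.63 ± 0.22 (SE) on the lean diet (edgeR quasi-likelihood test, Benjamini-Hochberg adjusted p = 0.505), 0.76 ± 0.22 at 4 weeks (adjusted p = 0.878) and -0.11 ± 0.22 at 16 weeks (adjusted p = 0.953). Averaged over the 3 diets it was 0.43 ± 0.13 (adjusted p = 0.398). Over the 18 fits that each left out 1 library this average was 0.37 to 0.55 (adjusted p 0.0263 to 0.614). The call changed in 2 of them. Without WT 1 of the lean diet it was 0.55 (adjusted p = 0.0354), and without WT 2 at 16 weeks it was 0.55 (adjusted p = 0.0263). At 4 weeks the difference also passed when the 2 groups were fitted alone (adjusted p = 0.0351). Without the filter on low counts Cd44 passed on the lean diet, at 4 weeks and in the average. In those fits 135, 75 and 273 genes were called, in place of 5, 8 and 21. A difference that misses the threshold does not show that WT and KO were alike.

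These high WT libraries also stood out in other genes of fat Tregs. The summed CPM of 6 such markers (Pparg, Il1rl1, Gata3, Klrg1, Ccr2 and Areg) was 6288 in lean WT 1, against 3258 and 4202 in the other lean WT libraries and 5827, 6207 and 6107 in lean KO. At 16 weeks it was 5706 in WT 2, against 2597 and 3174 in the other WT libraries and 2211, 2912 and 2792 in KO. At 4 weeks the sums were 4434, 5029 and 3760 in WT and 6146, 5564 and 5622 in KO, which did not overlap. Cd44 thus moved with this marker sum, and the part of the sum in its KO minus WT values was not tested. In bulk libraries fewer cells of a kind and less RNA per cell cannot be told apart.

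**Figure D2:**
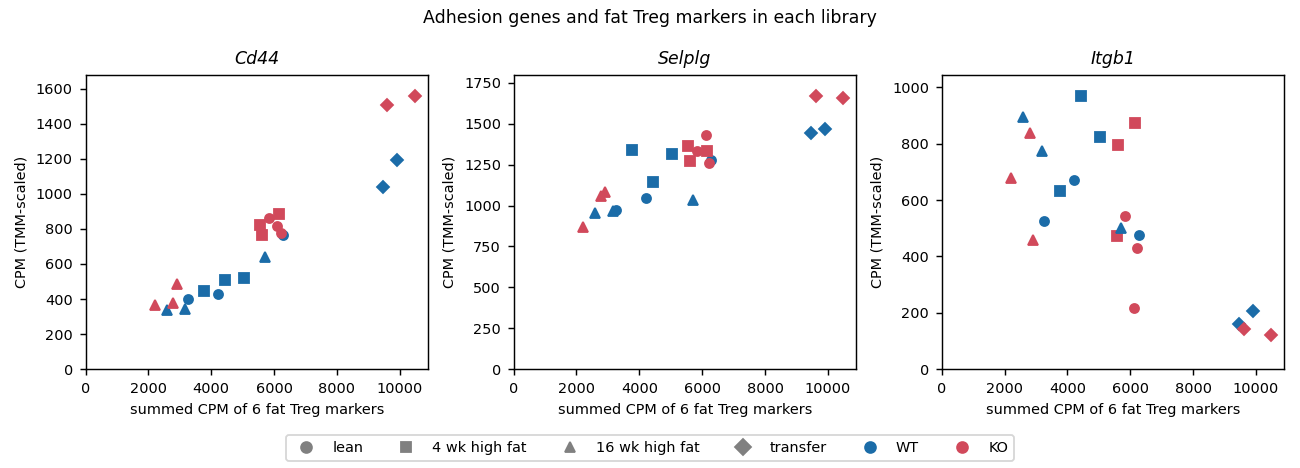
CPM of Cd44, Selplg and Itgb1 (y axes) against the summed CPM of 6 fat Treg markers (x axes) in the 22 libraries; symbols give diet or transfer, colours the genotype. The 4 transferred libraries lie at marker sums of 9474 to 10491 CPM, at the top for Cd44 and Selplg and at the bottom for Itgb1, and the lean WT library at 6288 CPM lies just below the lean and 4-week KO libraries for Cd44.

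Selplg, the selectin ligand, was at 1279.8, 970.1 and 1046 CPM in lean WT and at 1336, 1263 and 1435 CPM in lean KO. WT 1 was above the lowest KO library, so the groups overlapped, and the log2 difference was 0.29 ± 0.11 (adjusted p = 0.551). Itgb1, the beta chain of the fibronectin and Vcam1 receptor, was at 477, 527 and 673 CPM in lean WT and at 544, 431 and 216 CPM in lean KO (log2 difference -0.49 ± 0.29, adjusted p = 0.761). Its partner Itga4 was at 442, 461 and 459 CPM in lean WT and at 427, 352 and 321 CPM in lean KO, which did not overlap (-0.31 ± 0.15, adjusted p = 0.690). The other KO minus WT log2 values on the 3 diets lay between -0.65 ± 0.59 (Itgae, the CD103 alpha chain, at 4 weeks) and 0.25 ± 0.15 (Itga4 at 16 weeks).

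By count, 0 of the 9 passed edgeR on the lean diet, at 4 weeks, at 16 weeks and in the average, where 0.0427%, 0.0684%, 0.0427% and 0.18% of the 11698 genes tested passed. At an unadjusted p under 0.05 the member counts were 3, 1, 0 and 1 of 9, where 7.17%, 4.62%, 9.15% and 7.39% of all genes had such a p, and DESeq2 called 0 members in each. The median log2 difference of the members was 0.09, -0.03, 0.03 and 0.01, against 0.00 over all tested genes in each case. The test of whether the genotype difference changed with diet also called 0 of 9 at 4 and at 16 weeks (0% of genes in both, DESeq2 0 in both). At 16 weeks 3 members had an unadjusted p under 0.05 in it (8.49% of all genes did), namely Itga4 (0.56 ± 0.21, adjusted p = 0.452), Itgal (0.31 ± 0.15, adjusted p = 0.585) and Cd44 (-0.73 ± 0.31, adjusted p = 0.531). At 4 weeks there were 0 at that level (4.56% of all genes).

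After transfer Cd44 was at 1037 and 1194 CPM in WT and at 1507 and 1557 CPM in KO. The groups did not overlap, and the log2 difference of 0.44 ± 0.10 did not pass edgeR (adjusted p = 0.312), while DESeq2 called it (adjusted p = 0.0263). The 6 fat Treg markers summed to 9474 and 9905 CPM in WT and to 9607 and 10491 CPM in KO. The part of this sum in the Cd44 values was not tested. Itgb1 was at 160.0 and 206 CPM in WT and at 144 and 122 CPM in KO (-0.47 ± 0.17, adjusted p = 0.689). Selplg was at 1445 and 1468 CPM in WT and at 1668 and 1656 CPM in KO (0.18 ± 0.08, adjusted p = 0.777). Itgae was near its lowest levels, at 10.2 and 1.45 CPM in WT (46 and 8 counts) and 27.4 and 7.19 CPM in KO (127 and 38 counts). These overlapped, and the log2 difference of 1.58 ± 0.86 had an adjusted p of 0.848. In all, edgeR called 0 of the 9 (0.171% of 11715 genes), and 2 had an unadjusted p under 0.05 (6.53% of all genes). DESeq2 called 1 of the 9 and 61 of all genes.

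**Figure D3:**
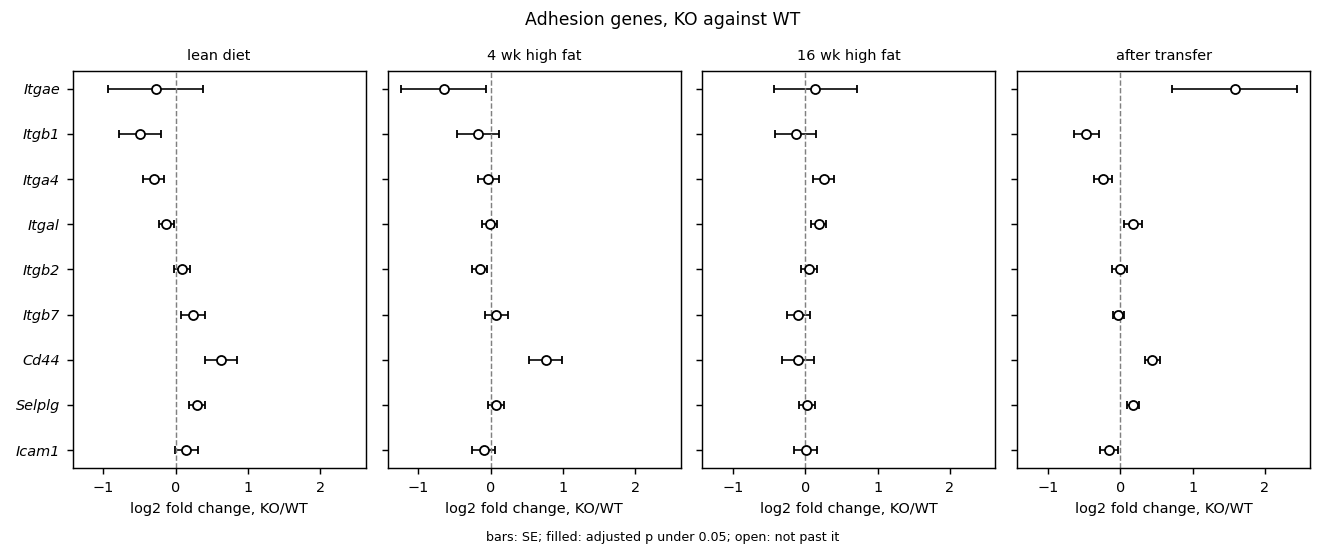
Log2 fold change, KO over WT, of the 9 genes with the SE, in the 3 diets and after transfer. All points are open, meaning that none passed an adjusted p of 0.05; Cd44 lies at 0.63, 0.76, -0.11 and 0.44.

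High fat diet for 4 weeks gave no called change in either genotype: 0 of 9 members, as for all genes (0% in both genotypes), with 1 member in WT and 2 in KO at an unadjusted p under 0.05 (5.59% and 7.15% of all genes), and 0 by DESeq2 in both. Itgb1 was at 968, 823 and 634 CPM in WT after 4 weeks, against the lean 477, 527 and 673, and at 872, 472 and 796 CPM in KO, against 544, 431 and 216. The log2 differences were 0.52 ± 0.29 in WT (adjusted p = 0.903) and 0.84 ± 0.29 in KO (adjusted p = 0.525). Both pairs of groups overlapped. Itgae was at 60.3, 47.8 and 123 CPM in WT after 4 weeks, all above the lean WT values of 29.7, 28.0 and 30.9 (1.37 ± 0.62, adjusted p = 0.877).

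After 16 weeks of high fat diet Cd44 and Selplg were lower than in lean mice in KO cells and in the average of both genotypes, and Itgae was higher in that average. In KO, Cd44 was at 368, 488 and 377 CPM after 16 weeks, against 864, 779 and 814 CPM on the lean diet. All 3 libraries at 16 weeks lay below all 3 lean ones, and Cd44 fell 2.00-fold (log2 -1.001 ± 0.22, adjusted p = 0.0102). Selplg was at 869, 1081 and 1059 CPM against 1336, 1263 and 1435 CPM, again without overlap (log2 -0.43 ± 0.11, adjusted p = 0.0238). These were the 2 members called in KO, both lower, where 5.95% of genes were called and 3.59% were lower. The other KO members ran from -0.50 ± 0.16 (Itgb7, adjusted p = 0.0678) to 1.70 ± 0.63 (Itgae, adjusted p = 0.119).

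Both calls in KO were lost without some single libraries, and both values stayed below 0. Over the fits that each left out 1 library the log2 value was -1.14 to -0.93 for Cd44 and -0.49 to -0.34 for Selplg. Cd44 had an adjusted p of 0.0562 without KO 1 at 16 weeks, the library with stromal and adipocyte markers, and of 0.0558 without KO 3. Selplg lost its call without KO 1 (0.129) or KO 3 (0.0513) at 16 weeks and without KO 1 (0.0651) or KO 3 (0.0878) of the lean diet. With both libraries numbered 1 at 16 weeks left out, Cd44 stayed called (adjusted p = 0.0416) and Selplg did not (0.139). With scaling by library totals Selplg was at -0.31 and lost its call (0.0731), while Itgal was at 0.35 and gained one (0.0299). Itgb7 came past the threshold in DESeq2 (adjusted p = 0.0486), without lean WT 1 (0.0438) and without KO 3 at 16 weeks (0.0232). Itgae did so without WT 1 (0.0222) or WT 2 (0.0269) at 16 weeks, and when only the groups compared were fitted (0.005). All 6 fat Treg markers fell in the same comparison, from a lean KO sum of 5827 to 6207 CPM to a sum of 2211 to 2912 CPM. Of the markers of other cell types, the endothelial gene Cldn5 and the adipocyte gene Fabp4 were called higher there. Of 6 endothelial markers only Cldn5 passed the filter on low counts, and of 5 adipocyte markers only Fabp4 did. The adipocyte genes Lep and Cfd had no count in KO at 16 weeks. The endothelial sum was 13.7 to 70.9 CPM at 16 weeks against 2.76 to 4.25 CPM in lean KO, and the adipocyte sum was 10.1 to 53.3 against 2.13 to 4.03 CPM. The part of these marker changes in the Cd44 and Selplg values was not tested.

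In WT none of the 9 passed (0.0855% of genes; 1 member at an unadjusted p under 0.05, as for 8.76% of all genes; 0 by DESeq2). Cd44 was at 340.1, 639 and 345 CPM at 16 weeks against 766, 398 and 429 CPM (log2 -0.27 ± 0.22, adjusted p = 0.780), and the groups overlapped because WT 2 at 16 weeks was high. Itgae had the widest spread of the 9, at 166, 9.10 and 40.5 CPM in WT at 16 weeks against 29.7, 28.0 and 30.9 CPM (1.29 ± 0.62, adjusted p = 0.569). The same WT 2 library that was highest for Cd44 was lowest for Itgae. The difference between genotypes in this response was the interaction given above, which called 0 of 9, so Cd44 is not shown to fall more in KO.

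Averaged over both genotypes, 3 of the 9 were called at 16 weeks against lean, 1 higher and 2 lower, where 6.63% of genes were called, 2.92% higher and 3.72% lower. Itgae was higher, with a lowest, median and highest value of 9.10, 61.5 and 166 CPM in 6 libraries against 17.9, 28.8 and 35.2 CPM in 6 lean ones (1.49 ± 0.44, adjusted p = 0.0451). Cd44 was lower, at 340.1, 372 and 639 CPM against 398, 773 and 864 CPM (-0.63 ± 0.16, adjusted p = 0.0176). Selplg was lower, at 869, 999 and 1081 CPM against 970.1, 1271 and 1435 CPM (-0.30 ± 0.08, adjusted p = 0.0256). All 3 overlapped between diets. In the same comparison 5 of the 6 fat Treg markers were called lower (Pparg, Il1rl1, Klrg1, Ccr2 and Areg). The sum of the 6 was 2211 to 5706 CPM at 16 weeks against 3258 to 6288 CPM in lean cells. Of 6 general Treg markers, 1 was called higher and 1 lower (Il2ra and Cd3e were the 2 called). Fabp4, the only 1 of 5 adipocyte markers that passed the filter, was called higher. The adipocyte sum was 2.06 to 53.3 CPM against 1.88 to 4.03 CPM. The part of all these markers in the values of the 3 genes was not tested. Itgb7 (-0.33 ± 0.11, adjusted p = 0.0852) and Itgb1 (0.55 ± 0.20, adjusted p = 0.122) did not pass.

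Itgae rested on WT 1 at 16 weeks, its highest library: without it the log2 value was 0.72 (adjusted p = 0.267). Its call was also lost, at log2 values of 1.31 to 1.70, without any 1 of the 6 lean libraries (0.0528 to 0.0986), KO 1 (0.12) or KO 3 (0.0703) at 16 weeks, or WT 1 (0.053), KO 2 (0.0509) or KO 3 (0.0549) at 4 weeks. It was lost as well, at a nearly equal log2 value, when all 22 libraries were fitted together (0.0649) and when only the groups compared were (0.0603). Cd44 lost its call without lean WT 1 (0.0652) and without WT 1 (0.0575), WT 3 (0.0505), KO 1 (0.0533) or KO 3 (0.0505) at 16 weeks. Selplg lost it without lean WT 1 (0.0852), lean KO 3 (0.0689), or WT 1 (0.0684), WT 3 (0.0556) or KO 1 (0.0762) at 16 weeks, and with scaling by library totals (0.0622). With both libraries numbered 1 at 16 weeks left out, none of the 3 remained called: Itgae was at 0.54 (0.487), Cd44 at -0.51 (0.127) and Selplg at -0.23 (0.158). Itgb7 came past the threshold without lean WT 2 (0.0456) and without KO 3 at 16 weeks (0.024).

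The fall of Selplg was seen against 4 weeks as well, and Itgb7 joined it there. These values share the 16-week libraries with those above. Selplg was at 869, 999 and 1081 CPM (lowest, median and highest of 6) at 16 weeks against 1142, 1326 and 1365 CPM at 4 weeks, with no overlap (-0.38 ± 0.08, adjusted p = 0.0126). Itgb7, the beta chain shared by the gut-homing and E-cadherin receptors, was at 1126, 1670 and 1993 CPM against 2019.6, 2244 and 2496 CPM, also with no overlap (-0.44 ± 0.11, adjusted p = 0.0465). These 2 were called lower, where 2.12% of genes were called and 1.53% were lower. Cd44 was at -0.58 ± 0.16 (adjusted p = 0.0599) and passed in DESeq2 (0.0156), and also without lean WT 1 (0.0173), lean WT 2 (0.0485) or WT 2 at 16 weeks (0.00282). It passed as well with all 22 libraries in 1 fit, with only the groups compared, and without the filter on low counts. Of the 6 fat Treg markers, 3 were called lower at 16 against 4 weeks (Pparg, Klrg1 and Ccr2). The sum of the 6 was 2211 to 5706 CPM against 3760 to 6146 CPM. Il2ra was also called lower, and Fabp4 was called higher. The part of these markers in the Selplg, Itgb7 and Cd44 values was not tested.

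Selplg kept this call whichever single library was left out, but not without both libraries numbered 1 at 16 weeks (-0.32, adjusted p = 0.0959). Itgb7 lost its call when any 1 of 13 of the 18 libraries was left out, all but lean WT 1 and 2, KO 2 at 4 weeks, and WT 2 and KO 3 at 16 weeks (adjusted p up to 0.123, without KO 3 at 4 weeks). It also lost it with scaling by library totals (0.0664). Its log2 value stayed between -0.46 and -0.34 in those fits.

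**Figure D4:**
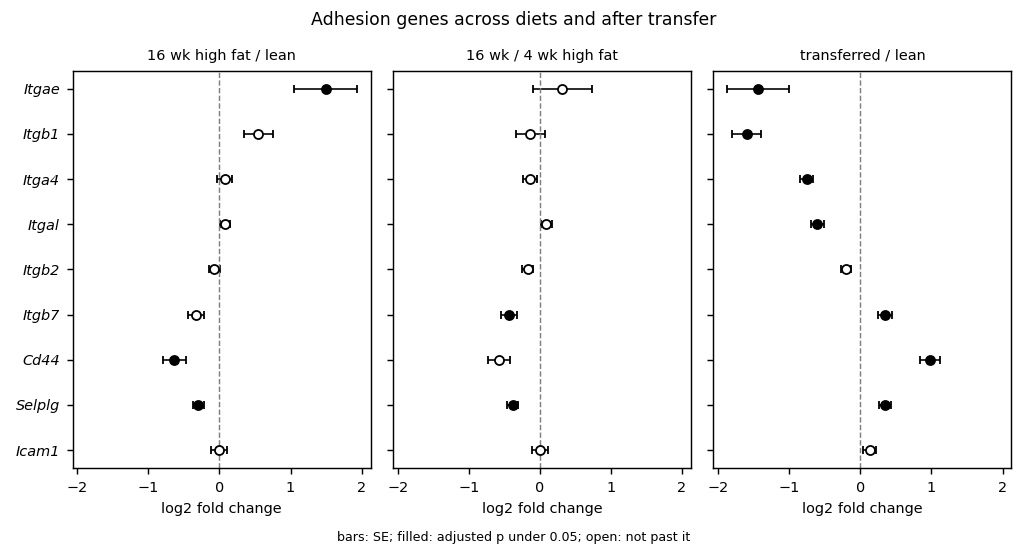
Log2 fold change with the SE of the 9 genes for 16 weeks of high fat diet over lean, 16 over 4 weeks of high fat diet, and transferred over lean, each as the mean of both genotypes; filled points passed an adjusted p of 0.05. The left and right panels share the lean libraries; Cd44 lies at -0.63 and -0.58 for the diets and at 0.98 for transfer, and Itgb1 lies lowest in the transfer panel at -1.60.

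Transferred Tregs differed from lean Tregs in 7 of the 9 genes, 3 higher and 4 lower, where 15.7% of 11425 genes were called, 7.69% higher and 8.03% lower. Transfer, host, age, depth, any difference in diet and any batch cannot be told apart in this comparison. Itgb1, Itga4, Itgal and Itgae were lower. Itgb1 was at 160.0 and 206 CPM (WT) and 144 and 122 CPM (KO) after transfer, against a lowest, median and highest value of 216, 502 and 673 CPM in the 6 lean libraries. The ranges did not overlap, and Itgb1 fell 3.03-fold (log2 -1.60 ± 0.20, adjusted p = 9.54e-05).

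Itga4 was at 265 and 260 CPM (WT) and 214 and 234 CPM (KO) against 321, 434 and 461 CPM in lean cells, a 1.69-fold fall without overlap (log2 -0.76 ± 0.09, adjusted p = 7.51e-05). Itgal was at 446 and 363 CPM and at 479 and 443 CPM against 545, 664 and 706 CPM, a 1.52-fold fall without overlap (log2 -0.61 ± 0.09, adjusted p = 0.000412). Its partner Itgb2 was at 694 and 668 CPM and at 653 and 711 CPM against 712, 783 and 828 CPM. These ranges also did not overlap, but the log2 value of -0.20 ± 0.07 passed only in DESeq2 (adjusted p = 0.0341) and with library totals (0.00705), not in edgeR with TMM (0.0714). Itgae was at 10.2, 1.45, 27.4 and 7.19 CPM against 17.9, 28.8 and 35.2 CPM, which overlapped (log2 -1.44 ± 0.44, adjusted p = 0.0353).

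Cd44, Selplg and Itgb7 were higher. Cd44 was at 1037, 1194, 1507 and 1557 CPM after transfer against 398, 773 and 864 CPM in lean cells, a 1.97-fold rise without overlap (log2 0.98 ± 0.14, adjusted p = 0.000295). Selplg was at 1445, 1468, 1668 and 1656 CPM against 970.1, 1271 and 1435 CPM, without overlap (log2 0.35 ± 0.08, adjusted p = 0.0088). Itgb7 was at 2662, 2616, 2602 and 2609.6 CPM against 1561, 2115 and 2476 CPM, without overlap (log2 0.34 ± 0.10, adjusted p = 0.0283). Icam1, the ligand of the Itgal and Itgb2 pair, was at 272, 243, 228 and 237 CPM against 181, 227 and 253 CPM (log2 0.13 ± 0.10, adjusted p = 0.397).

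The calls of Itgb1, Itga4, Itgal, Cd44 and Selplg held in every alternative run for this comparison. Itgae lost its call without lean WT 1 (0.0508), WT 2 (0.0591), WT 3 (0.0708) or KO 1 (0.0847), without transferred WT 2 (0.099) or KO 2 (0.112), and when all 22 libraries were fitted together (0.1). Itgb7 lost it without any 1 of 8 of the 10 libraries, all but lean WT 1 and lean KO 1 (up to 0.0766), and with library totals (0.0839). All 6 fat Treg markers rose with transfer, from a lean range of 3258 to 6288 CPM to 9474 to 10491 CPM, and 3 of 6 general Treg markers rose (Foxp3, Il2ra and Ctla4). The 6 markers of type 2 innate lymphoid and mast cells summed to 794 to 942 CPM against 228 to 553 CPM in lean cells. Of these, 3 passed the filter on low counts and 1, Rora, was called, higher. Cpa3, Mcpt4 and Fcer1a had no count in transferred WT, and Fcer1a had none in transferred KO. Of 6 mesothelial and epithelial markers only Epcam passed the filter, and it was called higher. Upk3b and Krt19 had no count in either transferred group. The part of these markers in the member values was not tested.

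Set side by side, the 16-week and transfer values of Cd44 had opposite signs (-0.63 and 0.98), as had those of Selplg (-0.30 and 0.35) and Itgae (1.49 and -1.44). Both comparisons use the lean libraries. Ordered by mean, Cd44 ran from 411 ± 67.0 CPM (SD, n = 3) in KO at 16 weeks, through 441 ± 171 in WT at 16 weeks, 490 ± 40.6 in WT at 4 weeks, 531 ± 204 in lean WT, 819 ± 42.7 in lean KO and 826 ± 59.5 in KO at 4 weeks, to 1116 ± 111 (n = 2) and 1532 ± 34.9 (n = 2) in transferred WT and KO. The ranges of the first 4 overlapped between neighbours, as did those of lean KO and KO at 4 weeks. Itgb1 ran from 133 ± 15.3 CPM in transferred KO to 808 ± 168 CPM in WT at 4 weeks. Itgb2 (681 to 884 CPM) and Icam1 (212 to 257 CPM) had the narrowest spans of group means relative to their level.

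Genes outside the 9 were read from 5 adhesion lists of 118 genes, 79 of which were tested in the diet libraries and 76 in the comparison of transferred with lean cells. None of them passed edgeR for KO against WT on any diet, in the average or after transfer, nor at 4 weeks against lean, nor at 16 weeks in WT. For KO against WT on the lean diet, at 4 weeks, at 16 weeks, in the average and after transfer, 4, 5, 11, 7 and 13 of 79 had an unadjusted p under 0.05, where 7.17%, 4.62%, 9.15%, 7.39% and 6.53% of all genes did. In the same order DESeq2 called 0, 0, 1, 0 and 2 list genes, and 24, 8, 47, 38 and 61 of all genes. For 4 weeks against lean in WT and KO and for 16 weeks against lean in WT the counts were 2, 7 and 9, beside 5.59%, 7.15% and 8.76% of all genes, and DESeq2 called 0 list genes in each. At 16 weeks against lean, averaged over genotypes, 13 of 79 were called (16.5%, 7 higher and 6 lower, against 6.63% of all genes). Without KO 1 at 16 weeks 7 of these 13 kept their call, and 7 of 83 tested were called (8.43%, against 4.23% of all genes). Counts of called genes were 1 higher and 1 lower of 9 other integrins, 1 higher of 24 integrin activation genes, 3 higher and 1 lower of 18 other adhesion receptors and ligands, 1 higher and 2 lower of 13 glycosylation genes for selectin ligands, and 1 higher and 2 lower of 15 partners and ligands of Cd44. Beside Cd44, its cytoskeletal linker Ezr fell (log2 -0.49 ± 0.08, adjusted p = 0.00074), as did the sheddase Adam8 (-0.91 ± 0.18, adjusted p = 0.00441). Beside Selplg, the sialyltransferase St3gal4, which helps build selectin ligands, fell (-0.59 ± 0.12, adjusted p = 0.00355), while Gcnt1, the branching enzyme of such glycans, rose (1.19 ± 0.30, adjusted p = 0.0216). Without KO 1, Ezr (-0.50, adjusted p = 0.00241), Adam8 (-0.82, 0.0176), Cd74 (1.44, 0.0168) and St3gal4 (-0.55, 0.0142) stayed called and Gcnt1 did not (1.15, 0.0532).

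With transfer 25 of 76 list genes were called (32.9%, 12 higher and 13 lower), against 15.7% of all genes, 7.69% higher and 8.03% lower. Counts were 2 higher and 2 lower of 10 other integrins, 2 higher and 1 lower of 24 activation genes, 3 higher and 4 lower of 16 receptors and ligands, 2 higher and 2 lower of 12 glycosylation genes, and 3 higher and 4 lower of 14 Cd44 partners and ligands. Beside the fall of Itgb1, its collagen-binding partner Itga1 fell (log2 -2.90 ± 0.28, adjusted p = 8.26e-06) and Itgav, another partner, rose (0.71 ± 0.14, adjusted p = 0.00296). Beside Cd44, its proteoglycan ligand Srgn rose 1.91-fold (0.93 ± 0.09, adjusted p = 8.26e-06), and its partners Cd74 (-1.45 ± 0.35, adjusted p = 0.0113) and Mmp9 (-0.95 ± 0.25, adjusted p = 0.0157) fell. Tgfb1 also rose (0.73 ± 0.14, adjusted p = 0.00233), and the proteases Adam10 (-0.45 ± 0.12, adjusted p = 0.0206) and Mmp14 (0 to 9 counts per transferred library against 6 to 28 in lean ones, adjusted p = 0.00254) also fell. Rap1a and Rap1b, small GTPases that switch integrins on, both rose (0.58 ± 0.12, adjusted p = 0.00441, and 0.50 ± 0.10, adjusted p = 0.00386).

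None of 4 pairs of chains that form a heterodimer had a correlation past the threshold over the 18 diet libraries, on log2 CPM, after adjustment over the 4. Itga4 and Itgb1 had a Pearson r of 0.564 (permutation p = 0.0141, adjusted over 4 pairs 0.0564) and a Spearman rho of 0.406 (permutation p = 0.0979, adjusted 0.392). Without lean KO 3 and WT 2 at 16 weeks, the libraries farthest from the median of Itga4, r was 0.288. Leaving out such libraries narrows the range of Itga4, so this fall does not show that the relation rested on those 2. Itgal with Itgb2 had r 0.141 (permutation p = 0.567, adjusted 0.949; rho 0.0299, permutation p = 0.906, adjusted 0.941), Itgae with Itgb7 had r -0.0635 (permutation p = 0.801, adjusted 0.949; rho -0.0939, permutation p = 0.709, adjusted 0.941) and Itga4 with Itgb7 had r -0.0165 (permutation p = 0.949, adjusted 0.949; rho -0.0196, permutation p = 0.941, adjusted 0.941). Without their own 2 farthest libraries these were 0.0955, -0.0731 and -0.0752. Of deviations from group means r was 0.46 for Itga4 with Itgb1, 0.505 for Itgal with Itgb2, 0.177 for Itgae with Itgb7 and 0.0552 for Itga4 with Itgb7.

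As a description over the same 18 libraries, which share depth and marker differences, Cd44 was most like Nebl (r 0.914), Gpx1 (0.914) and the IL-33 receptor Il1rl1 (0.913). Selplg was most like S100a10 (0.896), Actg1 (0.889) and Tagln2 (0.885). Itgae was most like Rbm38 (0.863), the egress receptor S1pr1 (0.86) and Trim59 (0.855). Itgb7 was most like Nfkbid (0.87), Rap1gap2 (0.855) and Ier2 (0.817), and Itgb1 was most like Stat5b (0.845), Notch1 (0.837) and Dip2b (0.761). The leading genes for the others were Sntb1 for Itga4 (0.864), Cd274 for Itgal (0.834), Sirt2 for Itgb2 (0.774) and Sub1 for Icam1 (0.746). Among the 9 themselves, Cd44 and Selplg were most alike (0.816) and Itgae and Cd44 least alike (-0.517).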

How the data were processed

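Per the labels' protocols, mRNA of 1000 sorted cells per library was captured with an oligo(dT) primer, amplified and tagmented, and 38-base read pairs were taken. Alignment to mm10 used STAR 2.7.3a and counting used featureCounts, per the submitters' processing notes; its annotation, version and strand setting: not given in the sources used here. Whole-number counts per gene symbol, unscaled, were deposited by the authors for 22 libraries. The labels name no molecular tags, so PCR copies may be counted apart.

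The test was the quasi-likelihood F test of edgeR 4.0.16 on the counts (R 4.3.3, TMM scaling, minimum count 10, Benjamini-Hochberg adjustment over all genes tested, threshold 0.05). All adjusted p-values are from it unless another tool is named. The 18 diet libraries (11698 genes), the 4 transfer libraries (11715) and the 10 lean and transfer libraries (11425) were fitted apart, with a mean per group. Standard errors are the log2 fold change over the square root of F. Pairs of chains were tested with 1e+05 two-sided permutations. CPM used TMM over all 22 libraries. Positions and exon lengths came from GENCODE M21 and promoters from RefSeq. The fits were tested on simulated data. No 2 libraries of a group differed by as little as sampling noise.

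The 9 genes, the lists and the alternatives were chosen with earlier results of these data known. All 9 genes are named; of the lists, genes past the threshold, up to 6 per list and comparison by p, of which examples are given; and the 3 genes most like each member. DESeq2 1.42.0, other scalings, no filter, other sets of libraries, a replicate block and each library left out were alternatives.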

Additional observations from a re-analysis of the deposited data

How the results depend on the processing

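Over 14 comparisons the 9 genes gave 126 values, 14 of them called, and 3033 alternative values: 2923 stayed on their side of the threshold, 69 lost a call, 41 gained one, no called value changed sign, and 111 values called in neither fit did. Without the filter on low counts the members called were 2 for KO against WT on the lean diet, 1 at 4 weeks, 2 in the average and 1 after transfer; 2 in WT and 2 in KO for 4 weeks against lean; 1 in WT, 5 in KO and 5 in the average for 16 weeks against lean; and 1 in the interaction at 16 weeks. Over all genes those unfiltered fits called, in the same order, 135, 75, 273, 102, 40, 112, 178, 1085, 1081 and 258. Fitted alone, the 4-week groups gave 1 member (Cd44) and 9 over all genes. DESeq2 gave 1 member after transfer (Cd44) and 61 over all genes. Library totals gave 1 for 16 against 4 weeks. With WT 1 and KO 1 at 16 weeks both left out, an alternative chosen after seeing the data, the counts were 1 in KO and 0 in the average for 16 weeks against lean, and 0 for 16 against 4 weeks. Leaving out 1 library at a time gave 0 to 1 for the average of KO against WT, 0 to 3 for 16 weeks against lean in KO and 0 to 3 in the average, 1 to 3 for 16 against 4 weeks and 5 to 6 for transfer. The correlation of Itga4 with Itgb1 ran from 0.363 to 0.66 and passed without KO 1 (0.603) or KO 2 (0.592) at 4 weeks, WT 3 (0.66) or KO 2 (0.653) at 16 weeks.

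Same-numbered WT and KO libraries correlated at -0.0195 to 0.0906 in their deviations. Deviations from means of 2 or 3 libraries are tied to each other. These values therefore cannot show whether equal numbers mark pairs. With a replicate block, 1 member (Cd44) was called after transfer (0.45, adjusted p = 0.0382), Itgb7 came past the threshold at 16 weeks in KO (0.0393) and lost it for transfer (0.0748). On the lean diet 3 of 3 WT libraries correlated best with their own number, and 1 of 3 did at 4 and at 16 weeks. After transfer 2 of 2 did, at 0.0132, while differently numbered libraries were at -0.0132, a mirror image that groups of 2 always give. With the block, 40 genes in place of 20 were called for KO against WT after transfer and 5 in place of 8 at 4 weeks.

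Counts over all genes also moved. For KO against WT on the lean diet, at 4 weeks, at 16 weeks, in the average and after transfer they were 5, 8, 5, 21 and 20, and 135, 75, 428, 273 and 102 without the filter. DESeq2 called 24, 47, 38 and 61 on the lean diet, at 16 weeks, in the average and after transfer. Fits of only the groups compared called 10 on the lean diet, 50 at 16 weeks, 15 for 4 weeks against lean in KO and 1 for 16 weeks against lean in WT; all 22 libraries together called 37 for KO against WT after transfer. For 16 weeks against lean the counts in WT, KO and the average were 10, 696 and 776, and without the filter 178, 1085 and 1081; DESeq2 called 68 in WT. For 16 against 4 weeks the 248 genes became 536 without the filter and 391 in DESeq2. Without the 2 libraries the counts were 5 and 13 for KO against WT at 4 and 16 weeks, 446 and 325 in KO and the average for 16 weeks against lean, 76 for 16 against 4 weeks, and 21 in the interaction at 16 weeks. That interaction and the 4-week comparisons with lean called 0 in edgeR; without the filter they called 258 in the interaction, 40 in WT and 112 in KO, and 22 in the interaction at 4 weeks, and DESeq2 called 24 in the interaction at 16 weeks and 22 in KO. Leaving out 1 library at a time gave 4 to 11, 4 to 8 and 4 to 35 genes for KO against WT on the lean diet, at 4 and at 16 weeks, 0 to 3 for 4 weeks against lean in KO, 3 to 28, 373 to 781 and 483 to 967 for 16 weeks against lean in WT, KO and the average, 114 to 425 for 16 against 4 weeks and 0 to 36 in the interaction at 16 weeks. Library totals moved the median log2 value of all genes by 0.117 at 16 weeks in KO, 0.101 in the interaction and -0.1 for transfer, and the share of higher calls from 39.7% to 63.9%, from 43.9% to 62.1% in the average, from 27.8% to 46.8% for 16 against 4 weeks and from 48.9% to 30.8% for transfer. The causes were not tested.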

Other observations

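Other adhesion genes differed at 16 weeks of high fat diet in KO cells, where 12 of 79 list genes were called, 4 higher and 8 lower (15.2%, against 5.95% of all genes). Without KO 1 at 16 weeks, the library with the highest endothelial, stromal and adipocyte markers, 6 of these 12 kept their call, and 6 of 83 tested were called (7.23%, against 3.19% of all genes). Cd96, a nectin receptor, rose 3.03-fold (log2 1.60 ± 0.29, edgeR adjusted p = 0.00224), and Pecam1, an endothelial and leukocyte adhesion molecule, rose 2.35-fold (1.23 ± 0.33, adjusted p = 0.0302). Pecam1 was at 143, 142 and 109.5 CPM in the 3 KO libraries at 16 weeks, where 6 endothelial markers summed to 70.9, 20.5 and 13.7 CPM, and the part of those markers was not tested. Itga1 fell 3.54-fold (-1.82 ± 0.45, adjusted p = 0.0193), L1cam fell 2.00-fold (-0.9999 ± 0.26, adjusted p = 0.0259), and the matrix protease Mmp9, which docks on Cd44, fell 2.35-fold (-1.23 ± 0.34, adjusted p = 0.0368). Without KO 1, Cd96 stayed called (1.64, adjusted p = 0.00947), and Pecam1 (1.17, 0.0961), Itga1 (-1.53, 0.101), L1cam (-0.78, 0.134) and Mmp9 (-1.01, 0.168) did not. Also called with KO 1 and without it were Ezr (without it -0.79, adjusted p = 0.00274), Adam8 (-1.40, 0.0124), St3gal4 (-0.78, 0.0274), Rap1b (-0.92, 0.0362) and Cd74 (1.98, 0.0308).

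Itgb8, the beta chain of the integrin that activates latent TGF-beta, rose at 16 weeks against 4 weeks (2.36-fold, log2 1.24 ± 0.28, adjusted p = 0.022). It was at 36.5 to 115 CPM at 16 weeks and at 18.7 to 31.6 CPM at 4 weeks, with no overlap. Itgb3 fell in the same comparison (-0.81 ± 0.20, adjusted p = 0.0314). Without KO 1 at 16 weeks neither was called (Itgb8 1.12, adjusted p = 0.0773, and Itgb3 -0.67, 0.078).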
